A study of Mus musculus with 35 samples.

Results

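Cd200r1 and Cd200, the genes of an inhibitory receptor and of its ligand, were taken by symbol from the deposited gene table, and both were found, 2 of its 38924 genes. They were measured in CD8 T cells of C57BL/6 mice, sorted as CD3e+CD8+CD44hiCD62Llo (cells that have met antigen), and sequenced from total RNA in 35 libraries. Of the brain libraries, 5 came from young males, 6 from aged males and 5 from aged females without stimulation, and 4 from aged males and 5 from aged females after 2 h with PMA and ionomycin, which activate T cells without their antigen receptor. Spleen libraries came from aged males only, 5 unstimulated and 5 stimulated in the same way. The title of the series names the receptor and T cells that settle in the aging nervous system, and levels are given here across tissue, age, sex and stimulation. Whether the libraries of a group came from separate animals is not in the labels. Each p-value therefore reflects the spread among libraries, which may be technical.

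CD200 is a membrane glycoprotein of neurons, endothelium, B cells and some activated T cells. Its receptor CD200R1 sits mainly on myeloid cells and on subsets of T cells, and in the brain the pair is best known for holding microglia in a resting state. The receptor has no classical inhibitory motif in its tail; it recruits the adaptor Dok2, then Dok1 and RasGAP (Rasa1), which dampens Ras and the MAP kinases. In the mouse, Cd200r1 lies in a cluster with relatives, Cd200r2, Cd200r3 and Cd200r4, and the product of Cd200r4 is a receptor that pairs with an activating adaptor.

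On GRCm38 with the GENCODE M21 annotation, Cd200r1 (ENSMUSG00000022667, protein-coding) spans chr16:44765736-44794978 on the plus strand, and Cd200r4 is the next of these relatives, at chr16:44811733-44839150. Cd200 (ENSMUSG00000022661, protein-coding) spans chr16:45382135-45409053 on the minus strand of the same chromosome, 587.157 kb beyond the end of Cd200r1. The deposited gene lengths for Cd200r1 lay between those of its 2 annotated transcripts: ENSMUST00000057488, of 1892 bases in 7 exons and with an open reading frame of 326 residues, and ENSMUST00000134625, of 1310 bases, annotated as a target of nonsense-mediated decay, with a frame of 245 residues. The transcripts part after exon 4. The coding transcript goes on at chr16:44792727-44792770, whereas the decay transcript carries an extra exon of 142 bases, chr16:44792489-44792630, which ends the reading frame at chr16:44792530-44792532. The sequences at this junction are shown because the balance of these transcripts differed between libraries with many Cd200r1 counts (below, after the levels). Lower case is the last 30 bases of exon 4 (chr16:44790195-44790224, plus strand), capitals are the 44 bases that follow, and the last 3 capitals of the decay transcript are its stop codon.
Cd200r1 coding transcript: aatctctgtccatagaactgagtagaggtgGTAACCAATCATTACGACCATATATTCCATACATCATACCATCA
Cd200r1 decay transcript: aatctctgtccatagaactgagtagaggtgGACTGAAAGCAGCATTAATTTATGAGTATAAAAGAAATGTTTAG

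Library totals ran from 1.16 to 24.97 M counts. Stimulated brain libraries were the smallest, with 1.16 to 9.20 M counts and 2271 to 6769 genes detected, against 13729 to 15174 genes in spleen, and mitochondrial genes took 38.5 to 69.7% of their counts against 8.3 to 20.8% elsewhere. All 6 CD8 T cell markers were detected in every unstimulated brain library and every spleen library, and 3 to 6 of them in stimulated brain. Levels are given as CPM, a count relative to a library total scaled by the TMM method, and 3 counts, the limit that a count of 0 allows, were worth 0.114 to 0.363 CPM in unstimulated brain, 0.116 to 0.398 CPM in spleen and 0.571 to 3.19 CPM in stimulated brain. These limits cover counting error only. In bulk RNA, fewer cells with a transcript and less of it per cell cannot be told apart.

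Cd200r1 was high in a few unstimulated brain libraries and near or at 0 in the others. Among aged male brain libraries it had 2151 counts in replicate 7 (81.7 CPM) and 821 in replicate 12 (38.3 CPM). The same group held 21 counts in replicate 9 (1.39 CPM), 4 in replicate 10 (0.190 CPM), 3 in replicate 11 (0.146 CPM) and none in replicate 8. The group mean of 20.3 ± 33.7 CPM (SD, n = 6) therefore described no single library: the median was 0.788 CPM, replicate 7 held 67.1% of the summed CPM, and the mean without it was 8.01 CPM. At the mean level of unstimulated spleen, the 4 low libraries of this group would have had 37.9 to 93.8 counts each.

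Young male brain had the same form. Replicate 6 held 1552 counts of Cd200r1 (111.5 CPM), whereas replicates 2, 3, 4 and 5 held 24, 8, 3 and 1 counts (1.87, 0.771, 0.257 and 0.072 CPM). That 1 library carried 97.4% of the summed CPM of its group (mean 22.9 ± 49.5 CPM, n = 5), and the mean without it was 0.743 CPM. In aged female brain, replicate 13 held 260 counts (17.8 CPM), replicate 17 held 64 (3.67 CPM), replicate 16 held 23 (1.49 CPM), and replicates 14 and 15 held none (mean 4.59 ± 7.54 CPM, n = 5). Over all 16 unstimulated brain libraries, 13 had at least 1 count, and the 4 highest (aged male 7 and 12, young male 6, aged female 13) held 96.9% of the 4935 counts. Only these 4 exceeded every unstimulated spleen library, 1 lay within the spleen range and 11 lay below it.

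**Figure D1:**
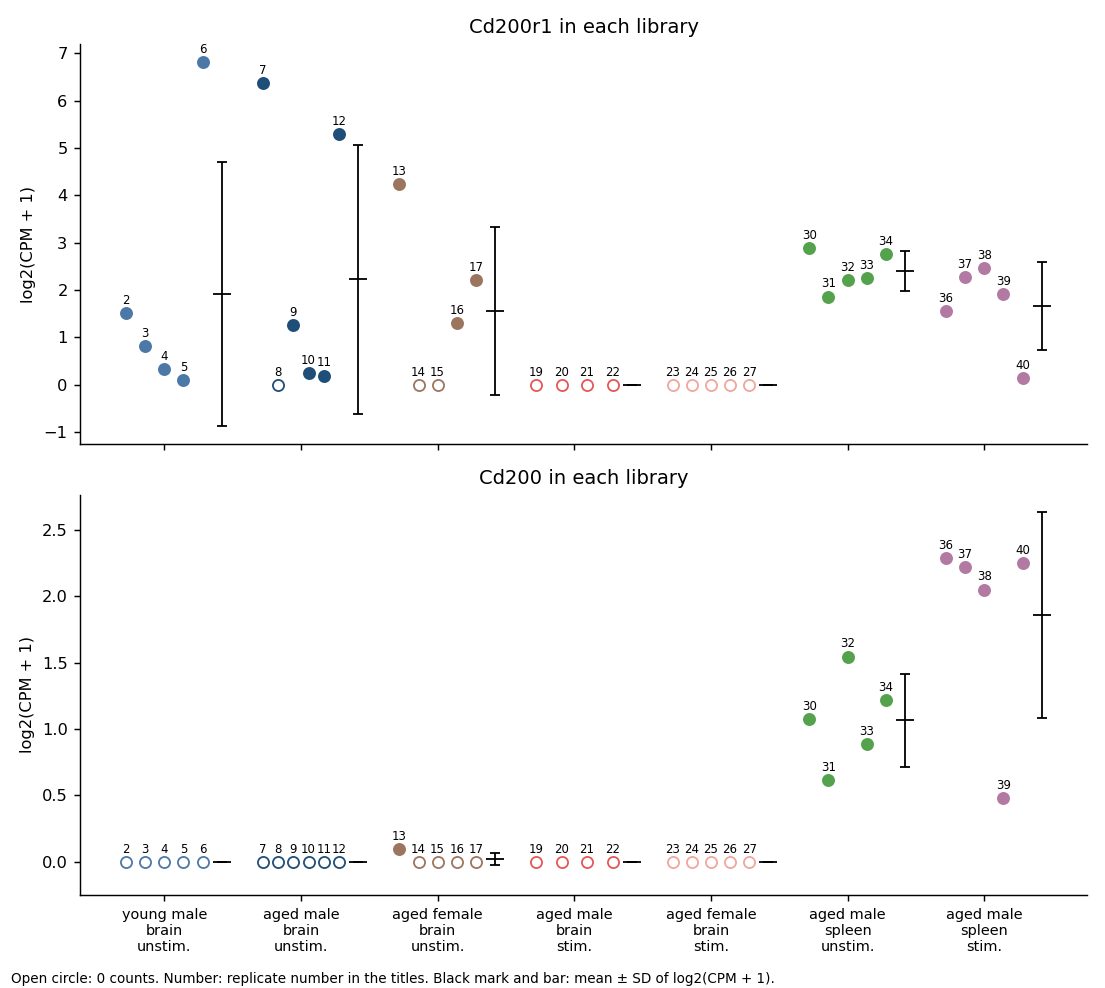
Level of Cd200r1 (top) and Cd200 (bottom) in each of the 35 libraries, as log2(CPM + 1), by group; open circles are libraries with 0 counts, numbers are replicate numbers, and black marks with bars are the mean ± SD. Cd200r1 ranges from 0 to 111.5 CPM within unstimulated brain and is at 0 in all 9 stimulated brain libraries, whereas Cd200 is present in all 10 spleen libraries and has 1 count in all of the brain.

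Such unevenness was common in these brain libraries. Among the 12956 genes that passed the low-count filter over all 35 libraries, the median share held by the top library was 52.0% in aged male, 60.5% in young male and 53.5% in aged female unstimulated brain, against 27.3% in unstimulated spleen. The top-library share of Cd200r1 was reached or exceeded by 33% of genes with counts in aged male brain, 17.3% in young male brain and 24.9% in aged female brain. In aged male brain 45.7% of genes were at 0 in at least 1 library, in young male brain 47.3% and in aged female brain 62.6%. In unstimulated spleen this was 10.9%.

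In spleen, every library had Cd200r1. Unstimulated replicates 30 to 34 held 99, 40, 59, 98 and 96 counts (6.41, 2.64, 3.65, 3.79 and 5.78 CPM; mean 4.45 ± 1.58, n = 5). Their highest and lowest levels differed far less than those of brain. Unstimulated brain and spleen of aged males overlapped, and the sign of the difference depended on the summary: the brain mean was above the spleen mean, but the brain median of 0.788 CPM was below the spleen median of 3.79 CPM. The fitted log2 fold change was 2.00 ± 1.56 (edgeR adjusted p = 0.62), in a comparison in which 7.37% of 11040 genes passed (3.35% higher and 4.02% lower in brain). On the log2(CPM + 1) scale the brain mean was lower by a difference of -0.17 (exact two-sided permutation p = 0.88, adjusted p = 1 over the 8 comparisons of the gene). The gene was detected in 5 of 6 brain and 5 of 5 spleen libraries (Fisher's exact test, two-sided p = 1).

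Age and sex gave no call for Cd200r1. Aged and young male brain libraries overlapped, with a fitted log2 fold change of -0.23 ± 1.88 for aged over young (edgeR adjusted p = 0.99; 0% of 8068 genes passed, 374 had an unadjusted p below 0.05, and DESeq2 called 72), and an exact permutation p of 0.97. This value rested on 1 library: without young replicate 6 it was 4.87 (edgeR adjusted p = 0.80). The aged female libraries overlapped the aged male ones too, at -2.01 ± 2.04 for female over male (edgeR adjusted p = 0.999; 0.15% of 8691 genes passed), with 3 of 5 against 5 of 6 libraries detecting the gene (Fisher's exact test, two-sided p = 0.55).

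No stimulated brain library had a Cd200r1 count. The 4 aged male libraries held 0 of 13.6 M summed counts and the 5 aged female libraries 0 of 26.4 M. At their own floors of 3 counts per library, aged male stimulated brain was at least 12.7-fold lower than unstimulated aged male brain by the group means, and aged female stimulated brain at least 3.39-fold lower than its unstimulated group. These limits rest on single high libraries: without replicate 7 the male limit was 5.01-fold, and without replicate 13 the unstimulated female mean of 1.29 CPM lay below the mean floor of 1.36 CPM, so that no limit remained. The levels overlapped at 0. The gene did not pass the low-count filter in these comparisons, where 38.1% (male, 36.4% lower and 1.75% higher) and 6.09% (female, 4.17% lower and 1.92% higher) of the genes tested passed. For males the exact two-sided permutation p was 0.048 (adjusted p = 0.19), and Fisher's exact test of detection, 0 of 4 against 5 of 6, gave p = 0.048 (adjusted p = 0.19). For females the exact permutation p was 0.17 (adjusted p = 0.33) and detection was 0 of 5 against 3 of 5 (Fisher's exact p = 0.17).

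These libraries were also short of many other transcripts. Of the 12956 genes, 50% were at 0 in all 4 stimulated male brain libraries and 27.1% in all 5 stimulated female ones, and the share of mitochondrial counts given above moved with stimulation. The 6 CD8 T cell markers summed to 2777 to 4572 CPM in unstimulated and 108.1 to 438.3 CPM in stimulated aged male brain, without overlap, and to 1744 to 2883 and 502.7 to 2005 CPM in aged female brain. Choroid plexus and oligodendrocyte markers were higher in stimulated than in unstimulated female brain. The sums of neuron, astrocyte, endothelium and microglia markers overlapped between these groups. In stimulated female brain the 3 choroid plexus markers summed to 113.9 to 664.6 CPM, mostly Ttr, against 0 to 5.76 CPM unstimulated, with Folr1 at 0 in both groups. The 3 oligodendrocyte markers summed to 157.2 to 375.1 CPM against 27.3 to 69.2 CPM, with Mog at 0 in all brain libraries. In males these sums overlapped between the groups (choroid plexus 0 to 1154 CPM stimulated and 1.85 to 616.4 CPM unstimulated, oligodendrocyte 54.5 to 313.0 and 38.5 to 273.0 CPM). In spleen the oligodendrocyte sum was 36.2 to 71.0 CPM, so these markers were not confined to brain libraries. The parts of library quality and of other cells in the 0 counts were not tested. The titles of stimulated female brain libraries 23 to 25 have hyphens, as those of the unstimulated female ones do, and the titles of 26 and 27 have none; Cd200r1 was at 0 in both sets.

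In spleen, stimulation left Cd200r1 detectable. Stimulated replicates 36 to 40 held 23, 39, 43, 21 and 1 counts (1.94, 3.86, 4.50, 2.78 and 0.099 CPM; mean 2.64 ± 1.73, n = 5). The groups overlapped, with replicate 40 the lowest, and the log2 fold change was -0.80 ± 0.62 (edgeR adjusted p = 0.42, where 18.7% of 11107 genes passed, 12.6% higher and 6.12% lower; exact permutation p = 0.13, adjusted p = 0.33). Every stimulated spleen library had a count and no stimulated male brain library did, a difference of at least 1.65-fold between the group means at the floor of 3 counts per library. Those floors, 0.571 to 3.002 CPM, reached above spleen replicates 36, 39 and 40, so the levels of single libraries were not separated. At the stimulated spleen mean the 4 brain libraries would have had 2.64 to 13.9 counts. edgeR called this difference (adjusted p = 0.029), as it did 48.5% of the 9135 genes tested, 46.7% lower and 1.82% higher in brain, and over all genes the median log2 fold change was -3.02. A fit of all 35 libraries did not call it (edgeR adjusted p = 0.066). The exact permutation test gave p = 0.016 (adjusted p = 0.13). Fisher's exact test of 0 of 4 against 5 of 5 libraries gave p = 0.0079 (adjusted p = 0.063). Neither p could be smaller with 4 against 5 libraries, so their failure after adjustment does not decide about the difference.

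The test of the difference between the tissues' responses, over the 4 aged male groups, called Cd200r1. Its fitted interaction was -10.24 ± 3.44 on the log2 scale, lower in brain (edgeR adjusted p = 0.025). In that test 37.8% of 12117 genes passed, 35.7% lower and 2.1% higher, and the median of all genes was -4.04. The size depends on how a group of 0 counts is fitted and gives no bound. Stimulated male brain, 1 of the 4 groups, is the one with the mitochondrial shares and the genes at 0 described above, whose part was not tested.

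The balance of the Cd200r1 transcripts was read from the deposited gene length, which the authors' RSEM files give as the mean over transcripts weighted by their abundance. In the 17 libraries with at least 20 counts, a length of 1892 bases stood for the coding transcript alone and 1310 for the decay transcript alone. In unstimulated brain the decay transcript took 100% in 5 of 8 such libraries (aged female 13, 16 and 17, young male 2 and 6), 96.3% in aged male replicate 12 and 77.1% in replicate 7. The exception was aged male replicate 9, at 0% with 21 counts. Unstimulated spleen stood at 0% in replicates 30, 31 and 34, 19.7% in replicate 33 and 53.8% in replicate 32, and stimulated spleen at 0% in replicates 36 and 38, 55.6% in 37 and 89.7% in 39. The 3 brain libraries with the most Cd200r1, each above 800 counts, thus had mostly the transcript whose frame ends in the extra exon. The medians were 100% over the 8 brain libraries and 0% over the 9 spleen libraries, and the ranges overlapped. This pattern was chosen after its values were seen and is given without a test.

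**Figure D2:**
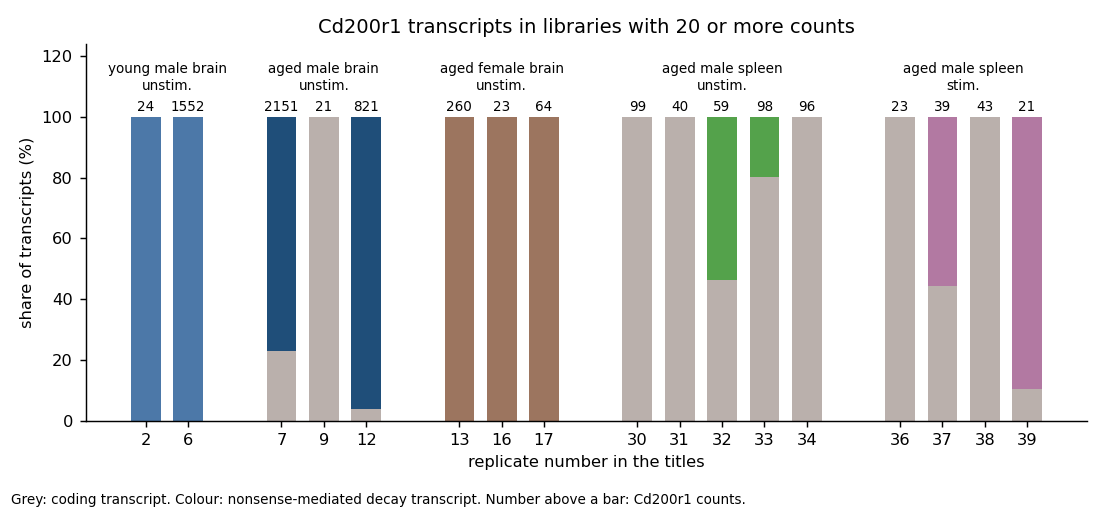
Share of the coding transcript (grey) and of the nonsense-mediated decay transcript (colour) of Cd200r1, in percent of the gene's transcripts, in each library with 20 or more counts, with the counts above the bars. Brain libraries other than aged male replicate 9 are mostly or wholly the decay transcript, and spleen libraries are mostly the coding one in 6 of 9.

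The transcripts also differ at their ends: the coding one is longer by 634 bases at its 3′ end (chr16:44794345-44794978) and by 90 bases at its 5′ end (chr16:44765736-44765825), and gene-level files do not show which of these stretches set the split. Shorter lengths in brain were not peculiar to this gene. In the 8 brain libraries the ratio of the Cd200r1 length to its mean in unstimulated spleen was 0.725 to 0.799, except 1.05 in replicate 9. The median ratio was 0.988 to 0.998 over 4205 to 5822 genes per library. These had more than a single annotated transcript and at least 20 counts in that library and in every unstimulated spleen library. Between 14.3 and 26.3% of these genes had a ratio at or below that of Cd200r1 in the 7 libraries other than replicate 9. Reads that cross the junction were not analysed here.

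Cd200 was found in spleen and, but for 1 count, not in brain. Unstimulated spleen replicates 30 to 34 held 17, 8, 31, 22 and 22 counts (1.10, 0.528, 1.92, 0.850 and 1.32 CPM; mean 1.14 ± 0.524, n = 5). All 6 unstimulated aged male brain libraries and all 5 young male ones held 0. In aged female brain the single count was in replicate 13 (0.068 CPM), among 274.4 M counts summed over the 25 brain libraries. That library had the most genes detected of the unstimulated brain libraries (12706). It also had the highest sum of antigen-presenting markers of its group (140.8 CPM). The part of other cells in this count was not tested.

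Unstimulated brain and spleen libraries did not overlap in Cd200. At the spleen mean the 6 aged male brain libraries would have had 9.75 to 30.1 counts each. Their level was at least 6.29-fold lower than spleen at the floor of 3 counts per library, and that of young male brain at least 4.72-fold lower. edgeR called the aged male difference (adjusted p = 0.0049, against the 4.02% of genes called lower in brain). The exact permutation test gave p = 0.0043, the smallest that 6 against 5 libraries allow (adjusted p = 0.035), and Fisher's exact test of 0 of 6 against 5 of 5 libraries gave p = 0.0022 (adjusted p = 0.017). With any 1 library left out, the edgeR adjusted p was 0.0038 to 0.013 and the exact permutation adjusted p was 0.063. The libraries still did not overlap, and the permutation test allowed no smaller p with 1 library fewer, so its rise shows group size only.

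Absence in a whole brain group was not rare at this level of expression. Here the level was taken as CPM from library totals without TMM scaling, on which Cd200 stood at 0.868 to 3.21 CPM in unstimulated spleen. Of 2686 genes with a mean of 1 to 4 CPM there on this scale, 22.1% were at 0 in all 6 aged male unstimulated brain libraries. The share was 28.3% in the 5 young male and 15.7% in the 5 aged female ones. Only 13.1% of the 2686, 353 genes, had counts in at most 1 of all 25 brain libraries, as Cd200 did. The titles of aged male brain libraries have hyphens and those of spleen have none, so tissue and title format cannot be told apart here. The mean share of mitochondrial counts was 9.88% in these brain libraries and 11.8% in spleen, and their mean totals were 18.4 and 10.5 M counts, so the brain libraries were the deeper.

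Stimulated spleen had more Cd200 in 4 of 5 libraries. Replicates 36, 37, 38 and 40 held 46, 37, 30 and 38 counts (3.88, 3.66, 3.14 and 3.75 CPM), above every unstimulated library, and replicate 39 held 3 (0.398 CPM), below all of them. The mean was 2.97 ± 1.46 CPM (n = 5). The log2 fold change of 1.34 ± 0.60 did not pass (edgeR p = 0.045, adjusted p = 0.15; exact permutation p = 0.079, adjusted p = 0.21). Without replicate 39 it was 1.64 and passed (edgeR adjusted p = 0.042). The 9 stimulated brain libraries held no Cd200 count, and by the group means the aged male ones were at least 1.85-fold lower than stimulated spleen at the floor of 3 counts per library (edgeR adjusted p = 0.0079; exact permutation p = 0.016, adjusted p = 0.063; Fisher's exact p = 0.0079, adjusted p = 0.032). The exact permutation p was the smallest that 4 against 5 libraries allow. The floors of the stimulated male brain libraries lay below spleen replicates 36, 37, 38 and 40 but above replicate 39, so the levels were not separated there. No difference between the tissues' responses could be estimated for Cd200, with both brain groups at 0.

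The 250 bases before the Cd200 start are shown because this stretch was searched for letters read by factors that PMA and ionomycin activate. They lie at chr16:45409054-45409303 (minus strand, RefSeq, GRCm38.p6), written in the direction of the gene, with motif matches in capitals.
Cd200 upstream: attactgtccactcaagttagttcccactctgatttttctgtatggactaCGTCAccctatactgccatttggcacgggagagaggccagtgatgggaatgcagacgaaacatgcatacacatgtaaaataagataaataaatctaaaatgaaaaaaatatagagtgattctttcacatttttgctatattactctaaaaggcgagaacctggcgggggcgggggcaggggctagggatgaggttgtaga
On either strand it held 1 match to the CRE core TGACG, on the strand opposite to the gene, 200 to 196 bases before the start. It held no AP-1 letters (TGANTCA) and no NFAT core (GGAAA). Of 32851 promoters of the same length, 17.8% held the CRE core, 6.75% the AP-1 and 55.6% the NFAT letters. The motifs were searched one by one, and none overlapped here.

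**Figure D3:**
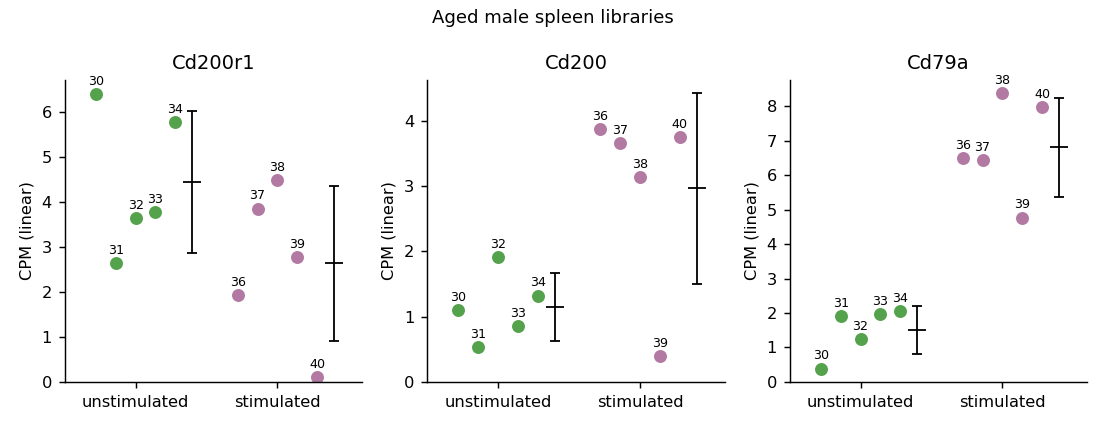
Cd200r1, Cd200 and the B cell marker Cd79a in each aged male spleen library, in CPM on linear axes from 0, unstimulated and stimulated, with replicate numbers and the mean ± SD in black. Cd200 is higher in stimulated replicates 36, 37, 38 and 40 than in any unstimulated library and lowest in 39, and Cd79a is higher in all 5 stimulated libraries than in any unstimulated one.

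Some B cell transcripts were higher beside Cd200 in stimulated spleen, while the summed level of the B cell markers overlapped between the groups. All 5 B cell markers were detected in all 10 spleen libraries, with a summed level of 127.6 to 412.4 CPM unstimulated and 160.1 to 350.9 CPM stimulated, led by Ighm. In unstimulated brain the sum was 0.38 to 27.9 CPM in aged males, 11.6 to 173.8 CPM in young males and 0 to 9.997 CPM in aged females, with Ighm again the highest by group mean. In spleen Cd79a, which encodes a chain of the B cell receptor complex, went from 0.389 to 2.05 CPM unstimulated to 4.77 to 8.37 CPM stimulated, and Ms4a1, which encodes the B cell antigen CD20, from 1.42 to 6.88 CPM to 11.1 to 28.2 CPM, both without overlap. Stimulated replicate 39, the lowest for Cd200, was also the lowest of its group for Cd79a. The genes Cd79a and Ms4a1 were singled out after their values were seen. The cells were sorted as positive for CD3e and CD8, and the part of B cells in the Cd200 level was not tested.

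The genes whose levels over the 35 libraries were most like those of Cd200, among 10962 compared, were Pou2af1 (Pearson r = 0.94), Zfp296 (0.93), Ciita (0.92), H2-Ob (0.91) and Faim3 (0.91). Pou2af1 encodes a B cell coactivator of transcription, Ciita the master activator of MHC class II genes, H2-Ob a chain of an MHC class II modulator, and Faim3 an Fc receptor for IgM. Each was detected in all 10 spleen libraries, and in 1 (Pou2af1), 2 (Ciita) or none of the 25 brain libraries. These correlations describe a shared presence in spleen and 0 in brain, over libraries that differ in depth. The genes most like Cd200r1 were Ccdc167 (0.85), Mutyh (0.84), Hs1bp3 (0.83), Arl14ep (0.82) and Apol9b (0.78), of which Mutyh encodes a DNA glycosylase of base excision repair. Receptor and ligand themselves had r = 0.14 over the same libraries.

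Receptor and ligand were detected together in all 10 spleen libraries and in 1 of 25 brain libraries. In brain, 12 libraries had the receptor only, 12 had neither and 0 had the ligand only. Compared per length, in TPM, the receptor was higher in 3 of 5 unstimulated spleen libraries (receptor 2.09 to 5.48, ligand 2.36 to 4.30 TPM) and the ligand in 4 of 5 stimulated ones (receptor 0.06 to 2.45, ligand 0.16 to 7.41 TPM). The exception was replicate 39. RSEM used lengths of 467 to 2347 bases for Cd200 in these libraries, which moves its TPM as well as the counts do.

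By mean CPM the groups ran, for Cd200r1, from young male brain through aged male brain, aged female brain, unstimulated spleen and stimulated spleen to both stimulated brain groups at 0. The unstimulated brain means rest on a few high libraries, and by median spleen came first. The medians were 3.79 CPM in unstimulated and 2.78 CPM in stimulated spleen. They were 1.49 CPM in aged female, 0.788 in aged male and 0.771 in young male unstimulated brain. The tests here are of neighbours in the order by mean. Of the 6 neighbouring pairs, only stimulated spleen and stimulated female brain differed beyond their spread with each count of 0 taken as a level of 0 (exact permutation p = 0.0079, adjusted p = 0.048 over the 6); each other pair had an adjusted p of 0.40 to 1. For Cd200 the order ran from stimulated to unstimulated spleen (exact permutation adjusted p = 0.24), then to unstimulated female brain (adjusted p = 0.048), with the other groups at 0.

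Among the relatives of the receptor, Cd200r4 was the most abundant. In aged male brain it was at 2.47 CPM in replicate 7, 18.9 in 8, 88.1 in 9, 35.9 in 10, 106.9 in 11 and 0.187 in 12, so the 2 libraries with the most Cd200r1 had the least Cd200r4. In young male brain, replicate 6, with the most Cd200r1, had 0.287 CPM, and replicate 5, with the least, had 29.1, while replicates 2, 3 and 4 were low in both (Cd200r4 0.390, 0.289 and 0.086 CPM). Aged female brain did not follow: replicate 13 was the highest for both genes (Cd200r4 10.96 CPM), and Cd200r4 was at 5.28 CPM in replicate 14 and at 0 in the other 3. The genes share sequence, and RSEM can move reads between them, so these single values are uncertain. This was noticed in the values and is given without a test.

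**Figure D4:**
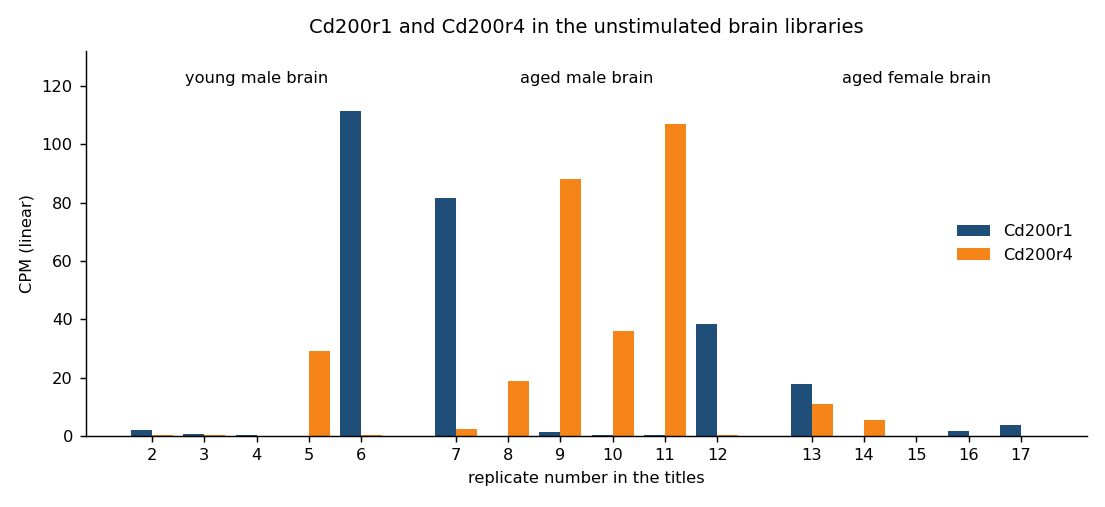
Cd200r1 (blue) and Cd200r4 (orange) in each of the 16 unstimulated brain libraries, in CPM on a linear axis from 0, by group and replicate number. In no male library are both genes above 2.47 CPM.

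Spleen held 2.41 to 10.1 CPM of Cd200r4 unstimulated and 0.693 to 6.71 CPM stimulated. Its difference between aged male brain and spleen was 2.55 ± 1.15 on the log2 scale and did not pass (edgeR adjusted p = 0.27), nor did that of stimulated spleen, at -0.98 ± 0.58 (edgeR adjusted p = 0.27). Cd200r2 never exceeded 1.42 CPM, and Cd200r3, expressed by basophils and mast cells, stayed at or below 3.997 CPM, its level in stimulated male brain replicate 19. The 5 mast cell and basophil markers were at 0 in all unstimulated and all stimulated female brain libraries and in that replicate. Stimulated male brain replicate 20 held 230.5 CPM of 1 of them, Cpa3, and no Cd200r3.

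Of the proteins at the receptor's tail, Dok2, Inpp5d and Rasa1 had counts in all 16 unstimulated brain libraries, 3 of which had no Cd200r1. Dok2 stood at 11.8 ± 5.42 CPM in aged males, 31.1 ± 17.4 in young males and 12.99 ± 12.1 in aged females, and at 8.74 ± 1.45 CPM in unstimulated spleen. Inpp5d, the lipid phosphatase SHIP1, was detected in all 35 libraries, at 139.2 ± 48.0 CPM in aged male brain and 108.3 ± 8.71 in unstimulated spleen. Rasa1 stood at 119.4 ± 87.6 CPM in aged male brain and 69.7 ± 8.37 in spleen. Dok1 stood at 3.92 ± 5.32 and 3.70 ± 1.40 CPM, was detected in 5 of 6 aged male, 3 of 5 young male and 4 of 5 aged female unstimulated brain libraries, and was at 0 in all 9 stimulated ones. None of these 4 passed between unstimulated brain and spleen (edgeR adjusted p from 0.66 for Rasa1 to 0.99 for Dok1).

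Of the 24 genes listed for the pathway (receptor family, ligand, adaptors, Ras and MAP kinases), 22 were measured. Between unstimulated aged male brain and spleen 20 were tested, and Cd200 alone passed, lower in brain, where 4.02% of all genes did so; the median log2 difference was 0.47 over the list and 0.31 over all genes. After stimulation of spleen cells, 2 of 20 passed (edgeR), both higher, against 12.6% of all genes. The median was -0.04 over the list and -0.07 over all genes.

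**Figure D5:**
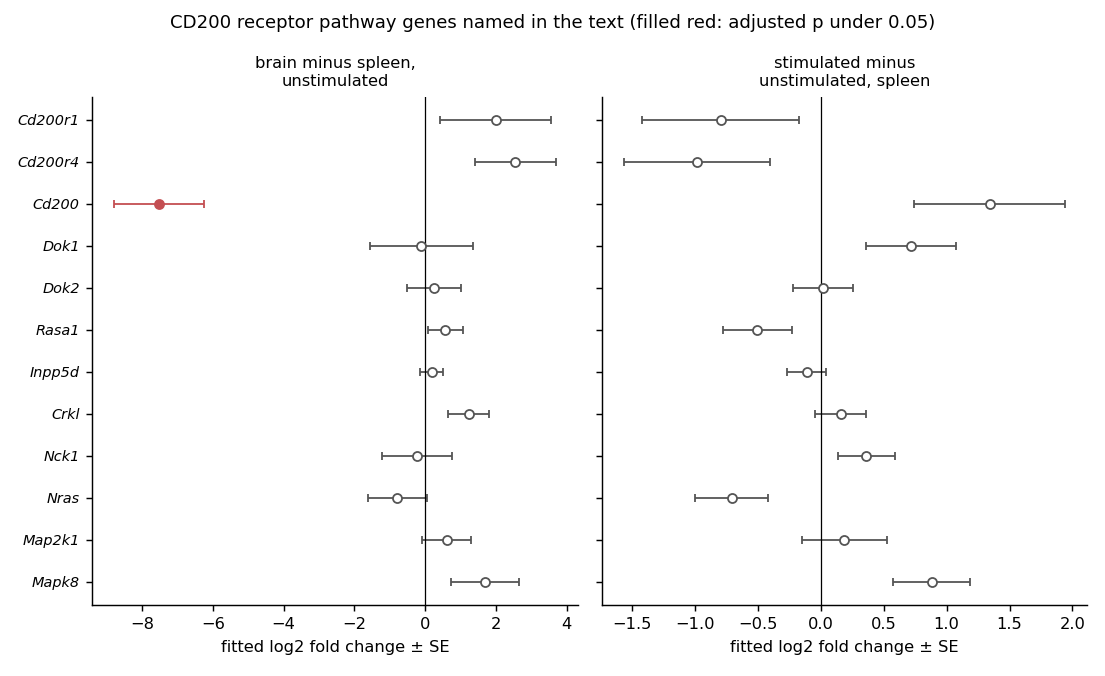
Fitted log2 fold changes ± SE (points and bars) of the 12 tested pathway genes named in the text, for unstimulated aged male brain minus spleen (left) and for stimulated minus unstimulated spleen (right); filled red points passed an adjusted p of 0.05. Of these 12, Cd200 alone passes on the left and none passes on the right.

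In stimulated male brain 5 of 17 tested members fell against unstimulated brain (Crkl, Nck1, Nras, Map2k1 and Mapk8) and none rose, where 36.4% of all 7540 genes fell, with a list median of -3.21 against -2.62 over all genes. The adaptors Crkl and Nck1 were at 0 in all 4 of those libraries, as Cd200r1 was, while Inpp5d was still in all 4 (129.6 ± 119.2 CPM). Against stimulated spleen 11 of 20 were lower, Cd200r1 and Cd200 among them, against 46.7% of all genes, with a list median of -4.20 against -3.02 over all genes. No member passed for age or sex (19 tested in each unstimulated comparison and 6 in stimulated brain), or for stimulation of female brain (14 tested) by edgeR. At an unadjusted edgeR p below 0.05 there were 0 members for age and for either sex comparison, and 1 for female stimulation. Among all genes tested there were 374 of 8068 for age and 989 of 6305 for female stimulation. For sex there were 365 of 8691 in unstimulated and 158 of 3159 in stimulated brain. With so few members tested, these counts do not decide about the pathway.

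Microglia transcripts did not order the libraries as Cd200r1 did. The 11 measured microglia and macrophage markers summed to 29.7 and 161.1 CPM in aged male replicates 7 and 12, 150.2 CPM in young male replicate 6 and 111.1 CPM in aged female replicate 13, the libraries with the most Cd200r1. Libraries with little Cd200r1 spanned a wider range, with 501.6 CPM in aged male replicate 9, 462.2 in young male replicate 2, 21.6 in aged male replicate 11 and 8.93 in aged female replicate 14. Unstimulated spleen held 77.4 to 106.7 CPM, with Tmem119, a marker of microglia, at 0. Choroid plexus markers were highest, among aged male libraries, in replicates 12 and 7 (616.4 and 389.1 CPM), those with the most Cd200r1, but stood at 1.51 CPM in young male replicate 6 and 2.53 CPM in aged female replicate 13. In aged female replicate 13, antigen-presenting markers summed to 140.8 CPM, against 3.03 to 10.65 CPM in the rest of its group. Its neutrophil and monocyte markers summed to 32.05 CPM, against 0 to 5.62 CPM, and its microglia sum was also the highest there. Males did not follow: young replicate 6 had the lowest antigen-presenting sum of its group (39.3 CPM). Aged male replicates 12 and 7 had the lowest neutrophil and monocyte sums of theirs (0.607 and 1.18 CPM). The part of myeloid or choroid plexus cells in the Cd200r1 level was not tested.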

How the data were processed

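The counts used are those of the deposited series table, whole numbers that differ by at most 0.5 from the expected counts that the authors deposited for each library. Per the submitters' processing notes, Bowtie2 2.2.0 and RSEM 1.2.12 were used on mm10. Which annotation release and whether strand was used were not given in the sources used here. The authors deposited, per the file headers, TPM and FPKM values and gene lengths from RSEM as well. TPM was used only to compare the receptor with the ligand within a library, FPKM was not used in a result, and lengths gave the transcript shares.

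Tests used edgeR 4.0.16 in R 4.3.3 (low-count filter filterByExpr at 10 counts, TMM, robust quasi-likelihood test, two-sided, groups compared only), with p adjusted by Benjamini-Hochberg over all genes tested and a threshold of 0.05. Exact two-sided permutation tests used log2(CPM + 1), with a pseudocount of 1, and Fisher's exact tests used detection of at least 1 count; both were adjusted over the 8 comparisons of a gene, or 6 neighbouring pairs. CPM used TMM-scaled totals over all 35 libraries, except for the set of 2686 genes, which was chosen by CPM from unscaled totals. Likeness was Pearson's r of log2(CPM + 1), leaving out predicted genes, small RNA and receptor segments. From the pathway list Dok1, Dok2, Rasa1 and Inpp5d are always named, with up to 3 members per direction that passed; the other names in lists of called members, and Cd200r4 by library, were added after the values were seen. Some pathway members and markers are not reported here. Groups came from the sample titles, and totals of 1.16 to 24.97 M counts set the precision. DESeq2 1.42.0, other filters, totals, pseudocounts and inputs and each library left out were the alternatives. Reference sequences and positions are from GENCODE M21 and, for the Cd200 upstream stretch, RefSeq. Tables and figures were made in Python 3.11.15 (matplotlib 3.10.9, scipy 1.17.1, pandas 2.3.3, numpy 2.4.6). The members and lists were chosen with earlier results of these data known.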

Additional observations from a re-analysis of the deposited data

Results flagged for a closer look

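Within groups of 4 to 6 libraries, the gap between the most extreme library and its nearest neighbour, as a share of the group's range, was compared with Dixon's 95% critical value. Chance exceeds it in about 1 of 20 groups of normally distributed values. These CPM are skewed and hold many values of 0, so that rate does not hold here. A single library above 0 has a gap equal to the whole range, whatever its level. Of the 8 sets of values that were not all 0 (2 genes by group), 4 exceeded it. Cd200r1 stood apart in young male brain replicate 6, at 111.5 CPM, and in aged female brain replicate 13, at 17.8 CPM. Cd200 stood apart in aged female brain replicate 13, at 0.068 CPM, which is 1 count among libraries at 0, and in stimulated spleen replicate 39, at 0.398 CPM, below the other 4. The responses of Cd200r1 to stimulation differed between brain and spleen of aged males, with an interaction of -10.24 on the log2 scale (edgeR adjusted p = 0.025). This value rests on a group at 0 counts, and 37.8% of all genes passed the same test.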

How the results depend on the processing

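Fits that left out 1 library each gave these ranges of log2 values. For aged male brain over spleen, unstimulated, Cd200 stood at -7.73 to -7.27 and Cd200r1 at 0.68 to 2.26. For the stimulated tissues, Cd200 stood at -7.54 to -7.34 and Cd200r1 at -7.33 to -7.15, in the 5 of 9 fits in which they passed the filter. For age, Cd200r1 stood at -0.56 to 4.87, in the 8 of 11 fits in which it passed the filter. It stood at -3.82 to -0.67 for sex, -1.05 to -0.47 for spleen stimulation and -10.57 to -8.82 for the interaction. For spleen stimulation, Cd200 stood at 1.15 to 1.64. Between the unstimulated tissues, each omission took the exact permutation adjusted p of Cd200 from 0.035 to 0.063, the least that the remaining libraries allowed. The permutation differences of log2(CPM + 1) were -1.18 to -0.95 for Cd200 and -0.999 to 0.28 for Cd200r1 between these tissues. They were -2.20 to -1.75 and -2.05 to -1.47 between the stimulated tissues, -0.52 to 1.53 for Cd200r1 by age, 0 to 0.02 and -1.34 to 0.15 by sex, 0.68 to 1.14 and -0.93 to -0.34 for spleen stimulation, -2.67 to -1.40 for Cd200r1 in male brain, and -0.02 to 0 and -1.94 to -0.88 in female brain. All reversals were of Cd200r1 for age, sex or the unstimulated tissues, and none of these values passed in any setting.

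Genes called over these omissions numbered 677 to 1015 and 3482 to 5981 for the tissues (unstimulated, stimulated), 0 to 1 for age, 4 to 15 for sex in unstimulated and 0 to 1 in stimulated brain, 1554 to 2340, 2109 to 2884 and 49 to 596 for stimulation of spleen, male and female brain, and 4038 to 4877 for the interaction. Fitting all 35 libraries at once moved Cd200r1 between the stimulated tissues to -7.98 (edgeR adjusted p = 0.066), and the genes called to 1 for age, 2559 for sex in stimulated brain, and 53, 5018 and 2549 for stimulation of spleen, male and female brain. The DESeq2 test called 72 for age, 23 and 90 for sex in unstimulated and stimulated brain, and 878 for female stimulation. No low-count filter gave 1677 between the unstimulated tissues, 25 for age, 29 and 21 for sex, and 704 for female stimulation. DESeq2 size factors gave 6 for sex, and stimulated female libraries 23 to 25 alone gave 135. The cause was not tested. Requiring 3 counts for detection left 0 libraries with Cd200 in unstimulated female brain. Without the filter, edgeR called Cd200r1 for male brain stimulation (adjusted p = 0.029). The transcript shares with at least 50 counts, an alternative added after the data were seen, had medians of 100% in brain and 9.87% in spleen.

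No paired analysis was possible because the groups share no replicate numbers. Depth limits the stimulated brain libraries most, where 3 counts were worth up to 3.19 CPM, more than the mean of either gene in stimulated spleen.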
